A study of Rattus norvegicus with 33 samples.

Results

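The nitrate, nitrite and nitric oxide subsystems are 5 of the 1057 functional categories to which the DNA reads of a rat gut community were assigned. They were chosen by name, as every category whose name contains nitrate, nitrite, denitrif, nitric, nitrosative or ammonification, and no measured value entered the choice. The 5 are Nitrate and nitrite ammonification, Dissimilatory nitrite reductase, Denitrification, Nitric oxide synthase and Nitrosative stress. A functional subsystem is a set of gene functions that together carry out 1 process. The tables give a value per subsystem and none per gene.

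Shotgun sequencing was run on cecal DNA from 33 rats aged 14 to 15 weeks. There were 10 female and 7 male spontaneously hypertensive rats (SHR), a strain bred for a blood pressure that climbs with age. They were set against 9 female and 7 male Wistar Kyoto rats (WKY), the related strain with normal blood pressure. Strain and sex are the only factors the labels give, no rat is labelled as treated, and each library came from its own rat. Cage, litter and sequencing batch are not labelled. The sample numbers of all SHR rats come before those of the WKY rats, and whether the numbers follow the order of processing is not labelled. If they do, processing order and strain cannot be told apart. Rats that shared a cage or a litter would make the p-values too small.

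Gut bacteria that live without oxygen can pass electrons to nitrate and then to nitrite. In ammonification, nitrite is reduced to ammonium. In denitrification, nitrite becomes nitric oxide, nitrous oxide and then dinitrogen gas, and a few bacteria also make nitric oxide from arginine with a nitric oxide synthase of their own. Nitric oxide is toxic to many bacteria and relaxes the blood vessels of the host, and nitrosative stress genes sense it and remove it.

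Library depth differed between the strains. The reads named to a subsystem ran between 95952 and 395417 per rat in SHR females (median 214911) and between 159285 and 389859 in SHR males (median 315719). They ran between 251346 and 489862 in WKY females (median 396240) and between 310753 and 426452 in WKY males (median 382975). All levels below are normalized reads, that is reads divided by the authors' size factor for the library. A lower level can come from fewer organisms that carry the genes or from fewer gene copies per organism, and these cannot be told apart here. Levels were not corrected for the number or the length of the genes in a subsystem, so they are compared between rats and not between subsystems.

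All 5 subsystems together were a small share of the reads named to a subsystem. Reads without a subsystem do not enter this share. Their summed share was 0.122% ± 0.011 in SHR females (SD, n = 10) and 0.122% ± 0.014 in SHR males (SD, n = 7). It was 0.144% ± 0.022 in WKY females (SD, n = 9) and 0.162% ± 0.036 in WKY males (SD, n = 7). The ranges overlapped, with 0.105% to 0.137% in SHR females, 0.0995% to 0.145% in SHR males, 0.118% to 0.189% in WKY females and 0.129% to 0.236% in WKY males. This sum is a description and was not tested. Nitrosative stress gave 52.1% of the summed reads, Nitrate and nitrite ammonification 36.4%, Dissimilatory nitrite reductase 7.14%, Denitrification 3.6% and Nitric oxide synthase 0.79%.

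The subsystems differed in how much they varied among rats of 1 group. The SD of the log2 level within groups was 0.25 for Nitrosative stress, 0.32 for Nitrate and nitrite ammonification, 0.37 for Dissimilatory nitrite reductase, 0.50 for Denitrification and 0.62 for Nitric oxide synthase. The median of this SD was 0.29 over the 625 subsystems that averaged more than 10 normalized reads. The rank order was the reverse of that of read number, as the same 5 subsystems averaged 236, 165, 32.3, 16.3 and 3.58 reads per rat.

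**Figure D1:**
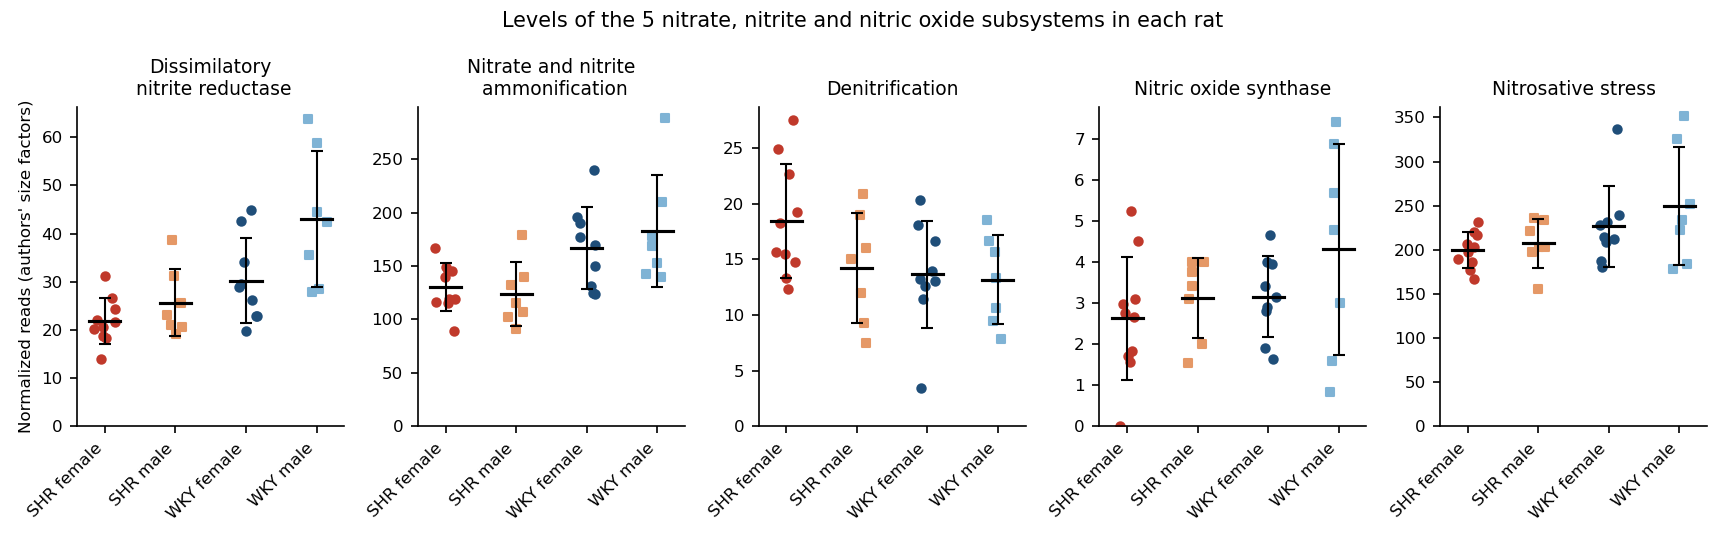
Normalized reads (vertical axes, each starting at 0) of the 5 subsystems in every rat, with 1 point per rat, a horizontal bar at the group mean and error bars of 1 SD. The groups are SHR females (n = 10), SHR males (n = 7), WKY females (n = 9) and WKY males (n = 7). Dissimilatory nitrite reductase averaged 21.8 and 25.6 in SHR females and males, against 30.2 and 43.1 in WKY females and males, and the groups overlapped in every panel.

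The first question was whether the cecal communities of the hypertensive strain carried these functions at another level. With the sexes averaged, 2 of the 5 subsystems differed between the strains, Dissimilatory nitrite reductase and Nitrate and nitrite ammonification. Both were lower in SHR. Over all subsystems, 17.2% were called in this comparison at an adjusted p under 0.05 by limma, and 10.5% were called and lower in SHR. The 182 calls were 71 higher and 111 lower. The median log2 fold change was -0.26 over the 5 subsystems and -0.022 over all subsystems, and 4 of the 5 fold changes were below 0.

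Nitrate and nitrite ammonification holds the genes that reduce nitrate to nitrite and nitrite to ammonium. Its lowest, median and highest levels were 88.9, 130 and 167 in SHR females, against 124, 170 and 240 in WKY females. They were 91.4, 115 and 179 in SHR males, against 140, 169 and 289 in WKY males. The strains overlapped in both sexes, yet every one of the 10 SHR females lay below the median of the WKY females and 6 of the 7 SHR males lay below that of the WKY males. With the sexes averaged, the log2 fold change was -0.45 ± 0.11 (SE; 95% confidence interval -0.67 to -0.22; limma adjusted p = 0.00557), a level 0.734 times that of WKY. It held at an adjusted p between 0.00188 and 0.0121 whichever 1 of the 33 rats was left out. The call was lost when every library was thinned to the 95952 reads of the shallowest one (log2 fold change -0.35, adjusted p = 0.0564) and when only the 26 rats at or above the median depth of SHR females were kept (-0.32, adjusted p = 0.073).

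Dissimilatory nitrite reductase covers the enzymes that respire nitrite to nitric oxide, the step that opens denitrification. Its lowest, median and highest levels were 14.0, 21.2 and 31.1 in SHR females, against 19.7, 28.9 and 44.9 in WKY females. They were 19.2, 23.2 and 38.7 in SHR males, against 27.8, 42.5 and 63.8 in WKY males. The groups overlapped, and the WKY males held the 2 highest rats, 1 of them WKY male 6 at 63.8. Of the 17 SHR rats, 16 lay below the median of WKY rats of their own sex, with SHR female 1 as the exception. The log2 fold change with the sexes averaged was -0.57 ± 0.13 (SE; 95% confidence interval -0.84 to -0.29; limma adjusted p = 0.00408), a level 0.675 times that of WKY. Leaving out any 1 rat kept the call, with adjusted p between 0.00191 and 0.00999. Thinning to equal depth lost it (-0.35, adjusted p = 0.344). Before thinning, SHR rats held between 6 and 34 reads of this subsystem and WKY rats between 25 and 74. The cause of the lost call was not tested.

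Denitrification groups the reductases that turn nitrogen oxides into nitrogen gases. It was the only 1 of the 5 with a fold change above 0 with the sexes averaged. Its lowest, median and highest levels were 12.3, 17 and 27.5 in SHR females, against 3.42, 13.2 and 20.3 in WKY females. In males they were 7.52, 15.0 and 20.9 in SHR, against 7.86, 13.3 and 18.5 in WKY. The groups overlapped widely, although 9 of the 10 SHR females exceeded the WKY female median. The log2 fold change was 0.28 ± 0.18 (SE) with the sexes averaged, and it did not pass the test (limma adjusted p = 0.295). In females alone it was 0.47 ± 0.23 (SE; unadjusted p = 0.0509, adjusted p = 0.202). Leaving out WKY female 1, which held 3 reads of it, took the female value to 0.27 (adjusted p = 0.43) and that with the sexes averaged to 0.18. In females the value stayed above 0 in all 41 other fits, and was 0.58 at equal thinned depth. In males it was 0.09 in the fit of all reads and -0.58 at thinned depth, which left -0.00 with the sexes averaged. Among the 26 rats at or above the median depth of SHR females it went the other way. There it was 0.34 in males and 0.47 with the sexes averaged (limma unadjusted p = 0.0272, adjusted p = 0.109).

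Within the 4 groups the level of Denitrification went with library depth, which differed between the strains. The shallowest SHR libraries were SHR females 5 to 10 and SHR males 3 and 4, at 95952 to 226735 reads. Their sample numbers are consecutive, and the other SHR libraries held 298212 to 395417 reads. Within SHR, depth and place in the sample numbering therefore cannot be told apart. Over the 33 rats, each centred on its group, log2 depth and log2 level had a Pearson r of 0.59 (permutation p = 0.0001, adjusted p = 0.00175 over 35 relations) and a Spearman rho of 0.56 (permutation p = 0.0013, adjusted p = 0.0152). The sign was the same in all 4 groups, and r was 0.52 without the 2 rats farthest from the median depth. Over all 33 rats, the other 4 subsystems had an r with depth between 0.01 and 0.39. None had an adjusted permutation p under 0.05, the lowest being 0.102 for Nitrate and nitrite ammonification (unadjusted permutation p = 0.0175). For that subsystem the groups diverged, with r at 0.79 among the SHR females but -0.83 among the WKY males. Its r was 0.42 for male SHR and 0.38 for female WKY rats. No test was made of r within single groups. The part of depth in the strain differences was not tested beyond the thinned fit and the fit of the 26 deeper libraries. The fit of the deeper libraries left out only SHR rats and did not make depth equal.

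**Figure D2:**
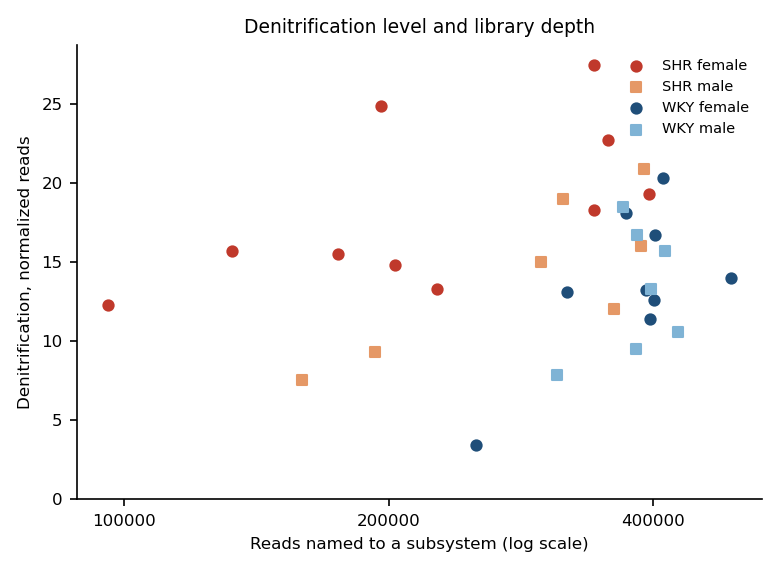
Normalized reads of Denitrification (vertical axis) against the reads named to a subsystem in each library (horizontal axis, log scale), 1 point per rat. SHR libraries reach down to 95952 reads while no WKY library lies under 251346, and within each group the deeper libraries tend to sit higher (r = 0.59 over the 33 rats after centring each group).

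Nitric oxide synthase, the enzyme that makes nitric oxide from arginine, was close to the limit of detection. Rats held between 0 and 6 reads in SHR females, 1 and 5 in SHR males, 2 and 6 in WKY females, and 1 and 10 in WKY males. The only rat without a read was SHR female 9, the shallowest library, where 0 of 95952 reads allows a share of up to 0.00313% (3 reads, counting error only). A strain difference was not detectable at this depth (log2 fold change -0.26 ± 0.22, SE; limma adjusted p = 0.445 with the sexes averaged). Its sign turned to 0.14 at equal thinned depth, in 1 random draw of reads, and other draws were not made.

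Nitrosative stress, the subsystem for sensing and removing nitric oxide, was the most abundant of the 5 and varied least. Its lowest, median and highest levels were 167, 200 and 232 in SHR females, against 180, 215 and 337 in WKY females. In males they were 156, 203 and 236 in SHR, against 178, 234 and 352 in WKY. The low ends of the strains lay close together and the high ends were further apart. The log2 fold change of -0.20 ± 0.09 (SE) with the sexes averaged did not pass the test over all subsystems (unadjusted p = 0.0277, limma adjusted p = 0.105), and 13 of the 17 SHR rats lay below the WKY median of their sex.

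**Figure D3:**
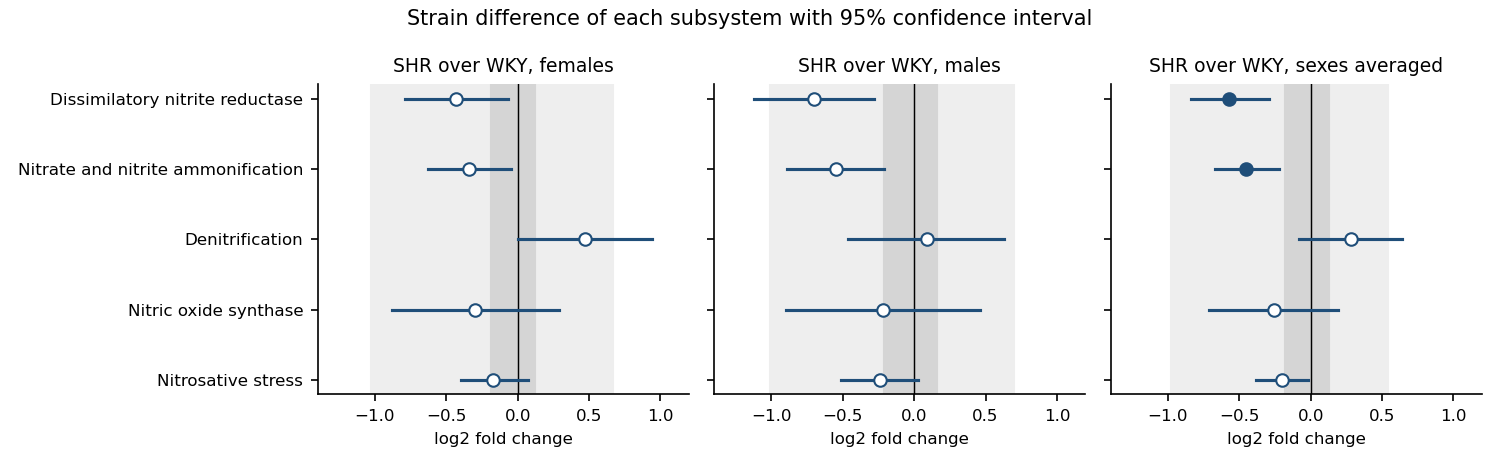
Log2 fold change of SHR over WKY (horizontal axes) of the 5 subsystems in females, in males and with the sexes averaged, with 95% confidence intervals; filled points passed an adjusted p of 0.05. The dark and light grey bands hold the central 50% and 95% of the fold changes of the 625 subsystems that averaged more than 10 normalized reads. Dissimilatory nitrite reductase (-0.57) and Nitrate and nitrite ammonification (-0.45) with the sexes averaged are the filled points.

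The strain comparison within each sex gave the same 2 subsystems as the lowest, but neither passed there. In females 0 of the 5 were called, against 8.42% of all subsystems. At an unadjusted p under 0.05 limma gave 2 of the 5 in females, against 264 of all 1057 subsystems, and edgeR and DESeq2 also called 0 of the 5. Dissimilatory nitrite reductase had a log2 fold change of -0.43 ± 0.18 (SE; adjusted p = 0.113) in females and Nitrate and nitrite ammonification one of -0.34 ± 0.14 (SE; adjusted p = 0.126). Thinned to equal depth, these female values were -0.06 and -0.18, and Nitrosative stress had the lowest of the 5, -0.27 (adjusted p = 0.227).

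In males 0 of the 5 were called by limma, against 2.46% of all subsystems. At an unadjusted p under 0.05, 2 of the 5 passed, against 203 of all 1057. The log2 fold change of Dissimilatory nitrite reductase was -0.70 ± 0.20 (SE; adjusted p = 0.0533), with all 7 SHR males below the WKY male median. That of Nitrate and nitrite ammonification was -0.55 ± 0.17 (SE; adjusted p = 0.0582). Both lay just short of the threshold. DESeq2 called both of them and edgeR called 1, Dissimilatory nitrite reductase at -0.74. Leaving out single rats also brought calls. Dissimilatory nitrite reductase passed without SHR female 9 (adjusted p = 0.0497), SHR male 3 (0.0336), WKY male 2 (0.0288), WKY male 7 (0.0197) or WKY female 9 (0.0469). Nitrate and nitrite ammonification passed without SHR female 9 (0.0491), SHR male 5 (0.0364), WKY male 1 (0.0477), WKY male 4 (0.0463) or WKY male 7 (0.0498).

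The larger fold changes in males were not shown to differ from those in females. The strain by sex term called 0 of the 5 and 0% of all subsystems by limma, with 82 of the 1057 subsystems at an unadjusted p under 0.05 and none of them among the 5. EdgeR and DESeq2 also called 0 subsystems. For Dissimilatory nitrite reductase the fold change in females minus that in males was 0.27 ± 0.27 (SE; 95% confidence interval -0.28 to 0.82; adjusted p = 0.886), and for Nitrate and nitrite ammonification it was 0.21 ± 0.22 (-0.24 to 0.65; adjusted p = 0.886).

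The sexes were also compared within each strain. In SHR, limma called 0 of the 5 and 0% of all subsystems, with 48 of the 1057 at an unadjusted p under 0.05 and none of those among the 5, and edgeR and DESeq2 called 0. In WKY, 0 of the 5 were called against 0.662% of all subsystems. Dissimilatory nitrite reductase had the lowest p there, at 30.2 ± 8.80 in WKY females and 43.1 ± 14.1 in WKY males (SD, n = 9 and 7), a log2 fold change of -0.48 ± 0.19 (SE; unadjusted p = 0.0174, adjusted p = 0.153). In SHR it averaged 21.8 ± 4.75 in females and 25.6 ± 7.01 in males (SD, n = 10 and 7), a log2 fold change of -0.22 ± 0.19 (SE; adjusted p = 0.896).

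The authors' deposited table of a model over all rats listed 148 subsystems with an adjusted p of at most 0.00968, and the same 2 subsystems were among them, on the same rats as here. Dissimilatory nitrite reductase stood in the authors' deposited table with a log2 fold change of 0.95 (standard error 0.21, adjusted p = 0.000522). For Nitrate and nitrite ammonification the authors' deposited table gave 0.47 (standard error 0.16, adjusted p = 0.00783). The direction is not labelled. Over 146 listed subsystems, the fold changes of the authors' deposited table followed the group means of WKY males over SHR females (r = 0.97 across subsystems, median gap 0.0089 on the log2 scale), so they run the other way round from those above. Its p-values match a test with 3 degrees of freedom, that is over all 4 groups. The authors' deposited tables for females alone (85 subsystems) and males alone (16 subsystems) listed 0 of the 5.

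The 5 subsystems did not move as 1 block across rats. Of the 10 pairs among them, none had a correlation of group-centred log2 levels with an adjusted permutation p under 0.05. The closest pair was Nitrate and nitrite ammonification with Nitric oxide synthase (Pearson r = 0.44, permutation p = 0.0138, adjusted p = 0.0967, and Spearman rho = 0.43, permutation p = 0.0164, adjusted p = 0.0958, over 35 relations and 33 rats), with r = 0.38 without the 2 farthest rats. The 2 subsystems that differed between the strains had an r of -0.07 with each other (permutation p = 0.71, adjusted p = 0.802) and a rho of -0.19 (permutation p = 0.328, adjusted p = 0.637), and r was -0.17 without the 2 farthest rats.

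The subsystems most like each of them were picked by the Pearson correlation of group-centred log2 levels over the 33 rats, among the 625 subsystems with more than 10 normalized reads. This rule was set after the values had been seen, and the likeness is a description without a test. Dissimilatory nitrite reductase was most like Molybdenum cofactor biosynthesis (r = 0.79, rho = 0.76), Uptake of selenate and selenite (r = 0.78, rho = 0.73) and Inorganic Sulfur Assimilation (r = 0.77, rho = 0.76). Nitrate and nitrite ammonification was most like a gene cluster named only by a gene number (r = 0.72, rho = 0.70), Tn552, named for a transposon known from staphylococci (r = 0.71, rho = 0.69), and Recycling of Peptidoglycan Amino Acids (r = 0.67, rho = 0.71). Denitrification was most like the Twin-arginine translocation system, which exports folded proteins (r = 0.65, rho = 0.56). For Nitrosative stress the closest was NiFe hydrogenase maturation (r = 0.44, rho = 0.40).

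Related subsystems were counted in 6 lists taken by name. With the sexes averaged, both globin subsystems were called, in opposite directions, and 1 of 3 molybdenum cofactor subsystems, 4 of 16 heme and cytochrome subsystems and 1 of 5 subsystems of anaerobic respiration and formate. The 17.2% called over all subsystems is the background for each of these counts. Of the 4 other nitrogen compound subsystems and the 6 of urea and ammonia turnover, 0 were called by limma. At an unadjusted p under 0.05, 1 and 3 of them passed, against 31.6% of all subsystems. Urea decomposition and Urease subunits were both among the 3. The reads of Urease subunits numbered 91.4% of those of Urea decomposition and followed them across rats (r = 0.98), so these are not independent. The median log2 fold changes were 0.14 for globins, 0.17 for molybdenum cofactor, -0.03 for heme and cytochromes, -0.10 for anaerobic respiration and formate, -0.23 for other nitrogen compounds and -0.09 for urea and ammonia turnover. In females 0 of the 36 subsystems of these lists were called by limma, against 8.42% of all subsystems. In males 1 each of the globin, molybdenum cofactor and anaerobic respiration lists was, all lower in SHR, against 2.46% of all subsystems.

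Globins bind nitric oxide and oxygen. Flavohaemoglobin, which turns nitric oxide into nitrate, had lowest, median and highest levels of 156, 178 and 237 in SHR females, against 169, 217 and 251 in WKY females. In males they were 154, 177 and 203 in SHR, against 190, 247 and 324 in WKY. The ranges overlapped, with 16 of 17 SHR rats below the WKY median of their sex, and the log2 fold change was -0.34 ± 0.07 (SE; limma adjusted p = 0.00201 with the sexes averaged, 0.0161 in males). Bacterial hemoglobins, a group of oxygen and nitric oxide binding proteins, were higher in SHR, at 56.0, 81.2 and 122 in SHR females, against 33.9, 50.7 and 113 in WKY females. In males they were 46.9, 73.6 and 110 in SHR, against 25.5, 40.5 and 97.0 in WKY. Every one of the 17 SHR rats lay above the WKY median of its sex (log2 fold change 0.62 ± 0.17, SE; adjusted p = 0.0125). Both calls held in all 33 leave-one-out fits and all 8 other settings.

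Molybdenum cofactor biosynthesis makes the cofactor that bacterial nitrate reductases need. It averaged 119 ± 16.7 in SHR females and 118 ± 10.0 in SHR males, against 127 ± 27.3 in WKY females and 179 ± 51.0 in WKY males (SD, n = 10, 7, 9 and 7). Its log2 fold change was -0.31 ± 0.10 (SE; limma adjusted p = 0.0237) with the sexes averaged. In males it was -0.55 ± 0.15 (SE; adjusted p = 0.0325), against -0.07 ± 0.13 (SE; adjusted p = 0.778) in females. The call with the sexes averaged was lost without WKY male 6 (-0.26, adjusted p = 0.0526), without the 3 shallowest libraries and among the 26 deeper ones.

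Among the electron carriers, Terminal cytochrome d ubiquinol oxidases, which respire oxygen where it is scarce, had a log2 fold change of -0.48 ± 0.13 (SE; limma adjusted p = 0.00765), with 15 of 17 SHR rats below the WKY median of their sex. Terminal cytochrome oxidases gave -0.47 (adjusted p = 0.00895), but its reads numbered 95.6% of those of Terminal cytochrome d ubiquinol oxidases and followed them across rats, so it is not independent of them. Anaerobic respiratory reductases, which use acceptors other than oxygen, had a log2 fold change of -0.38 ± 0.10 (SE; adjusted p = 0.012). Ubiquinone Menaquinone-cytochrome c reductase complexes had one of -1.14 ± 0.38 (SE; adjusted p = 0.0353) at a mean of 17.6 normalized reads, a call that held in 25 of 33 leave-one-out fits (adjusted p up to 0.0704, without WKY male 5). Soluble cytochromes and functionally related electron carriers were higher, at 0.16 ± 0.05 (SE; adjusted p = 0.0421), a call that held in 17 of 33 leave-one-out fits (adjusted p up to 0.0714, without WKY male 6). Thinning to equal depth ended the calls of Anaerobic respiratory reductases (-0.32, adjusted p = 0.0812), Terminal cytochrome oxidases (-0.45, adjusted p = 0.0639), Ubiquinone Menaquinone-cytochrome c reductase complexes (-1.09, adjusted p = 0.092) and Soluble cytochromes (0.15, adjusted p = 0.0813), while Terminal cytochrome d ubiquinol oxidases passed (-0.55, adjusted p = 0.0139). Ammonia assimilation, which takes up the product of ammonification, gave 0.15 ± 0.08 (SE; adjusted p = 0.194), and Urea decomposition gave -0.27 ± 0.11 (SE; adjusted p = 0.0912).

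**Figure D4:**
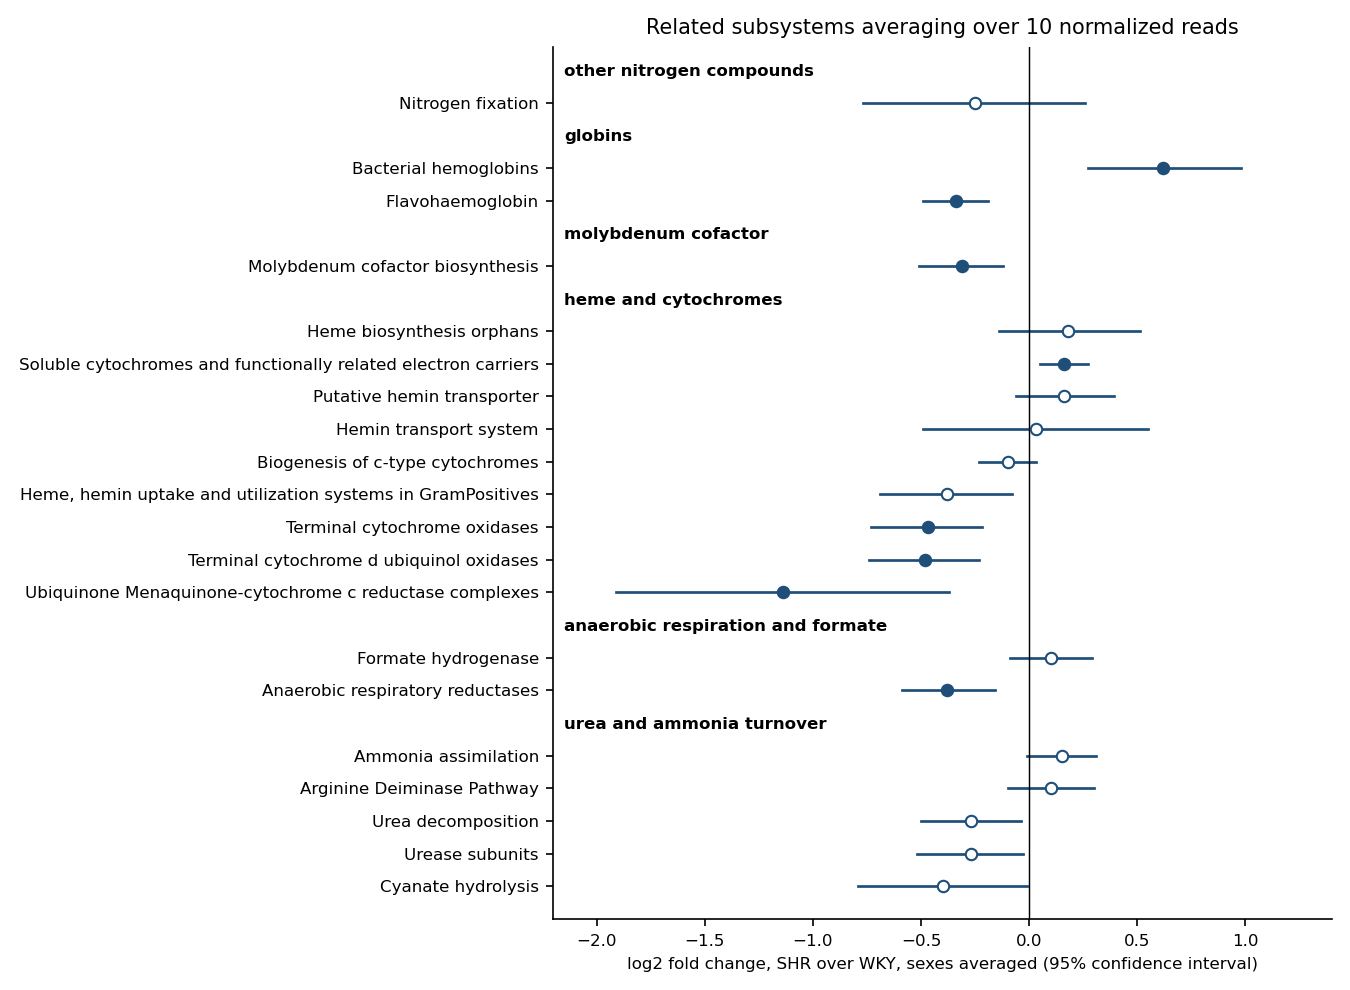
Log2 fold change of SHR over WKY with the sexes averaged (horizontal axis) and 95% confidence interval of the subsystems in 6 related lists that averaged more than 10 normalized reads; filled points passed an adjusted p of 0.05. Bacterial hemoglobins (0.62) and Flavohaemoglobin (-0.34) lie on opposite sides of 0, and no urea or ammonia subsystem is filled.

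Bacterial genera known for these reactions were set beside the subsystems. Names of genera are as the deposited tables give them and were not checked against the reads. The genera were scaled by the authors' size factors of the taxa table. Of the 20 tested genera that reduce nitrate or nitrite in animal hosts, limma called 1 with the sexes averaged, against 3.03% of all 1418 genera. In females it called 1 of these, against 0.917% of all genera. In males it called 0% of all genera and none of these, with 164 genera at an unadjusted p under 0.05; no other tool was run on genera. The 3 most abundant of the list were Campylobacter, Desulfovibrio and Klebsiella, at 0.192%, 0.138% and 0.0854% of assigned reads. Of 11 denitrifiers, led by Pseudomonas, and 5 carriers of a bacterial nitric oxide synthase, led by Bacillus and Staphylococcus, 0 were called, and of 5 nitrifiers 1 was.

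The called nitrate and nitrite reducer was Denitrobacterium, a genus first isolated from the rumen that reduces nitro compounds. It took 0.0133% ± 0.00342 of assigned reads in SHR females and 0.0193% ± 0.00517 in SHR males, against 0.0193% ± 0.00652 in WKY females and 0.0212% ± 0.00327 in WKY males (SD, n = 10, 7, 9 and 7). Scaled by size factors and not in percent, its log2 fold change with the sexes averaged was -0.72 ± 0.14 (SE; limma adjusted p = 0.00142). The called nitrifier was Nitrospira, a genus that oxidizes nitrite, at 0.35 ± 0.10 (SE; adjusted p = 0.0366). On the scale of percent of assigned reads, the median log2 fold change of all genera moved to 0.307, against -0.032 by size factors, and 38.2% of genera were called. On that scale the calls were 10 of the 20 nitrate and nitrite reducers, 6 of 11 denitrifiers, 3 of 5 nitrifiers and 2 of 5 carriers of a nitric oxide synthase, all higher in SHR. Denitrobacterium was at -0.31 (adjusted p = 0.0683) there and Nitrospira at 0.70 (adjusted p = 0.000339).

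The genera and the subsystems were then compared rat by rat. Scaled by size factors, the summed nitrate and nitrite reducers went with Dissimilatory nitrite reductase within groups (33 rats, Pearson r = 0.64, permutation p = 0.0001, adjusted p = 0.00175, and Spearman rho = 0.59, permutation p = 0.0009, adjusted p = 0.0152 over 35 relations). The sign was the same in all 4 groups, and r was 0.55 without the 2 farthest rats. On the percent scale the relation was gone (r = -0.10, permutation p = 0.662, adjusted p = 0.831, and rho = 0.02, permutation p = 0.934, adjusted p = 0.934 over 20 relations), with r = 0.18 without the 2 farthest rats. There r was 0.71 among the SHR females and -0.81 among the WKY males. The relation therefore rests on the scale of the genera. The denitrifiers went against Dissimilatory nitrite reductase on the percent scale (r = -0.52, permutation p = 0.00701, adjusted p = 0.0467, and rho = -0.44, permutation p = 0.0213, adjusted p = 0.107, with r = -0.38 without the 2 farthest rats), although r was 0.62 among the SHR females. By size factors that r was -0.42 (permutation p = 0.0254, adjusted p = 0.127) and rho -0.42 (permutation p = 0.0223, adjusted p = 0.112), with r = -0.45 without the 2 farthest rats.

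Nitrate and nitrite ammonification went against the carriers of a bacterial nitric oxide synthase, more firmly on the percent scale than by size factors. On the percent scale rats with more of these genera had lower levels (33 rats, Pearson r = -0.71, permutation p = 2e-05, adjusted p = 0.0004, and Spearman rho = -0.69, permutation p = 6e-05, adjusted p = 0.0012 over 20 relations). It was negative within each group, between -0.77 and -0.68, and -0.65 without the 2 farthest rats. Scaled by size factors, r was -0.41 (permutation p = 0.0308, adjusted p = 0.135 over 35 relations) and rho -0.52 (permutation p = 0.00369, adjusted p = 0.0323), and r was -0.63 without the 2 farthest rats. On that scale r was between -0.92 and -0.66 in the other 3 groups and 0.67 in WKY males. The nitrate and nitrite reducers also went against Nitrate and nitrite ammonification on the percent scale (r = -0.59, permutation p = 0.00134, adjusted p = 0.0134, and rho = -0.53, permutation p = 0.00312, adjusted p = 0.0312, with r = -0.44 without the 2 farthest rats), but not by size factors (r = -0.36, permutation p = 0.0532, adjusted p = 0.169, and rho = -0.36, permutation p = 0.0588, adjusted p = 0.187, with r = -0.38 without the 2 farthest rats). Both measures come from the reads of the same library. The synthase carriers had no passing relation with Nitric oxide synthase itself. There r was -0.07 by size factors (permutation p = 0.7, adjusted p = 0.802) and -0.26 in percent (permutation p = 0.108, adjusted p = 0.359). Denitrifiers and Denitrification had r = 0.43 by size factors (permutation p = 0.0108, adjusted p = 0.0944), positive in all 4 groups. In percent their r was 0.22 (permutation p = 0.23, adjusted p = 0.51).

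**Figure D5:**
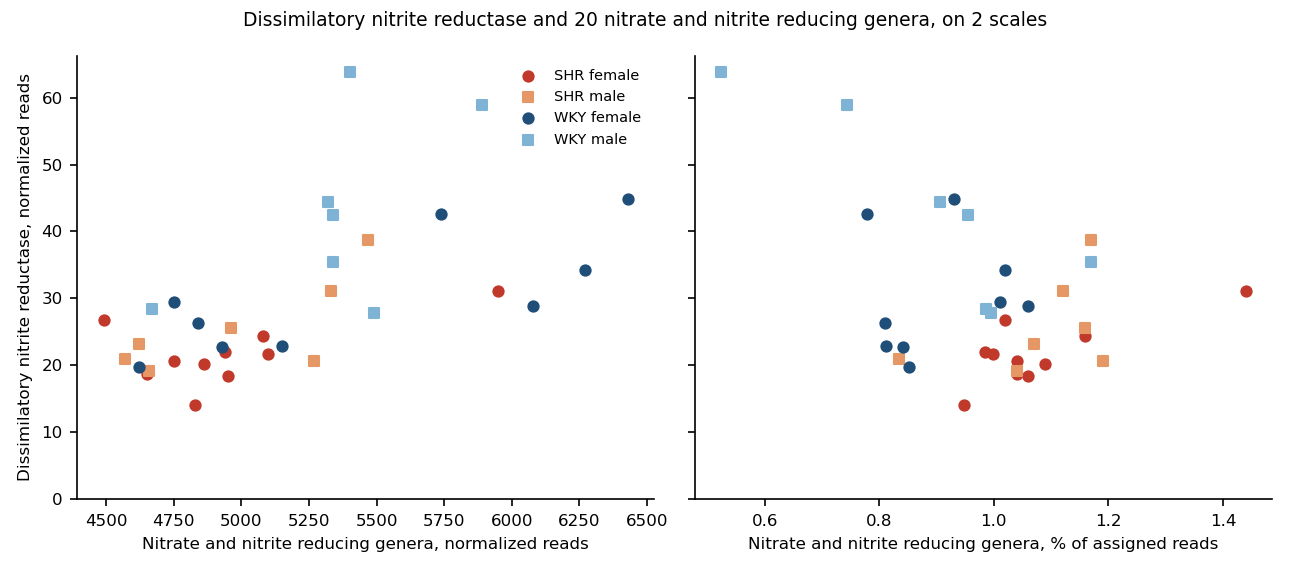
Normalized reads of Dissimilatory nitrite reductase (vertical axes) against the summed 20 nitrate and nitrite reducing genera in each rat, in normalized reads (left panel) and in percent of assigned reads (right panel), 1 point per rat. Within groups r is 0.64 on the left and -0.10 on the right, where WKY male 6 holds the lowest share of these genera, 0.524%, and the highest level of the subsystem, 63.8.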

How the data were processed

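Per the labels' protocols, cecal DNA of 33 rats was extracted with a PowerSoil kit and made into Nextera libraries. The submitters' processing notes name cutadapt 2.6, Trimmomatic 0.36, FastQC 0.11.5, DESeq2 (no version) and the rat build Rnor_6.0. What tools and databases named the reads, and whether 1 read could count in several subsystems, is not given in the sources used here. The authors deposited a never negative signal for 1057 subsystems and for taxa, which dividing by its smallest step turned into whole reads in 100% of values (tolerance 0.01 read), as for reads divided by a size factor. The authors deposited the genera as percent of assigned reads. Their model tables give deposited log2 fold changes and p-values, with deposited adjusted p-values, and the standard error and mean there, which are scores of their model, were used only where printed.

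The main test was limma 3.58.1 (trend and robust options, R 4.3.3) on log2(signal + 1), with 4 group means over all 33 rats, 2-sided, Benjamini-Hochberg over all 1057 subsystems and a threshold of 0.05. The added 1 makes log2 fold changes of subsystems with few reads too small. SHR minus WKY was tested in each sex and averaged over the sexes, female minus male in each strain, and strain by sex. Genera with at least 10 normalized reads in at least 7 rats were tested in the same way, and the comparison of genera with the sexes averaged was added after the values were known. Alternatives were a pseudocount of 0.5, a filter (10 reads in 7 rats, 663 subsystems kept), equal library totals, edgeR 4.0.16 and DESeq2 1.42.0 on the recovered reads, thinning to 95952 reads, leaving out the 3 shallowest libraries and each library in turn. Thinning was 1 random draw of reads, with 1 added to the thinned reads. Thinned values of subsystems with few reads could differ in another draw. The fit on the 26 rats at or above the median depth of SHR females and the percent scale for relations with genera were added after seeing the data. The fits were also run on simulated data with known changes, set only in SHR females and in subsystems averaging at least 10 reads. That run did not examine changes in Nitric oxide synthase or the comparison with the sexes averaged.

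Correlations used log2 values centred on each group and 100000 permutations within groups (scipy 1.17.1), 2-sided. The members, the lists and the tests were chosen with earlier results of these data known, and the related lists were completed after the subsystem names had been read. Members averaging at least 10 reads per rat are described with values and the other one by its counts and range. Of each related list, the subsystems past the threshold and up to 3 of the most abundant were named. Read counts carry no molecular identifiers, so intervals and floors cover counting error only.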

Additional observations from a re-analysis of the deposited data

Results flagged for a closer look

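Within-group gaps were examined for the 5 subsystems and their summed share in 24 groups of values, and chance flags about 1 group in 20. WKY female 5 had 337 normalized reads of Nitrosative stress, with the next of the 9 WKY females at 239, a gap that made up 0.624 of the group's range (limit 0.493). WKY male 6 had a summed share of 0.236% (Wilson 95% interval 0.219% to 0.253%, 732 of 310753 reads), with the next of the 7 WKY males at 0.172%, a gap of 0.595 of the range (limit 0.568). WKY male 6 also held the highest level of its group in Dissimilatory nitrite reductase (63.8), Nitrate and nitrite ammonification (289) and Nitrosative stress (352), and the lowest in Denitrification (7.86). The 2 strain calls held without either rat.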

How the results depend on the processing

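With the sexes averaged, Dissimilatory nitrite reductase passed in 7 of 8 other settings and Nitrate and nitrite ammonification in 6 of 8, both in all 33 leave-one-out fits, and both kept their sign. The number of the 5 subsystems called there was 2, against 0 after thinning and 1 among the 26 deeper libraries. In males it was 0, against 2 with the filter, 1 with equal library totals, 1 by edgeR and 2 by DESeq2. Leaving out 1 rat gave 0 to 0 calls in females, 0 to 2 in males, 2 to 2 with the sexes averaged and 0 to 0 for the sexes within SHR, within WKY and for strain by sex. Thinning tests fewer reads, and the cause of these changes was not tested.

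Counts over all subsystems moved more. In females 89 became 31 after thinning and 150 without the 3 shallowest libraries, and 61 to 129 on leaving out 1 rat. In males 26 became 49 with the filter, 83 by DESeq2, 10 after thinning and 15 among the deeper libraries, and 10 to 81 on leaving out 1 rat. The males' count moved by over 1.5 times without SHR male 1 (12), SHR male 2 (17), WKY male 1 (46), WKY male 2 (40), WKY male 5 (11), WKY male 6 (10) or WKY male 7 (81). With the sexes averaged 182 became 102 after thinning, and 135 to 215 on leaving out 1 rat. For females against males in WKY, 7 became 23 with the filter, 34 by edgeR, 70 by DESeq2 and 12 without the 3 shallowest libraries, and 2 to 74 on leaving out 1 rat, the extremes without WKY male 5 and WKY male 7. In SHR, and for strain by sex, 0 became 1 among the deeper libraries, and 0 to 1 on leaving out 1 rat. On the percent scale 169 genera were called in females, against 13 by size factors, 74 in males, against 0, and 541 with the sexes averaged, against 43.

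No paired analysis was possible because every rat gave 1 library and the replicate numbers only follow the order of the samples. Depth limits Nitric oxide synthase most, at 3.58 reads per rat.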
